A study of Homo sapiens with 14 samples.

Results

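The S34F mutation of U2AF1 was compared with wild type (WT) in the setting of 1 construct, the U2AF1 isoform that the labels call v3. The comparison holds 4 of the 14 libraries of the series, chosen by their labels alone: v3 S34F replicates 1 and 2, and v3 WT replicates 1 and 2. All of them are RNA-seq libraries of A549, an established human lung carcinoma cell line, grown adherent in RPMI-1640 medium with fetal bovine serum. Cells of both groups had been infected with a virus that carries U2AF1 v3 after their own U2AF1 had been knocked down, so the groups share the knockdown, the infection and the overexpression and differ in the S34F change. The construct's promoter is not given in the labels, and the cells still hold some of their own U2AF1. The other libraries are 2 each of v1 S34F, v1 WT, the knockdown with an empty vector, a control siRNA with an empty vector, and untreated cells. The series asked which genes are spliced differently with WT or S34F U2AF1.

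U2AF1 is the small subunit of U2AF, the factor that marks the 3′ end of an intron. U2AF2, the large subunit, binds the pyrimidine tract, and U2AF1 contacts the AG dinucleotide that ends the intron and the bases next to it. Serine 34 lies in the first zinc finger of U2AF1, and its change to phenylalanine is a recurrent mutation of lung adenocarcinoma and of myelodysplastic syndromes. Mutant U2AF1 is known for a changed choice among 3′ splice sites that depends on the base before the AG. A 3′ splice site is called an acceptor below. Acceptor usage is the share, in percent, that isoforms with the acceptor have in the FPKM of all isoforms of the gene that span it, where FPKM counts sequenced fragments relative to isoform length and library size.

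The targeted gene was checked first. U2AF1 (chromosome 21, 44513066 to 44527697, GRCh37) had 2114 and 3239 FPKM in the v3 S34F libraries, against 2366 and 3313 FPKM in the v3 WT libraries. The groups overlapped, and their difference was -0.10 ± 0.31 log2 units (SE, n = 2 each, limma, unadjusted p = 0.763). In both groups the second replicate was the higher one. The knockdown with an empty vector had 16.2 and 28.9 FPKM, against 117 and 119 FPKM with the control siRNA. The isoform ENST00000291552 made up 95.6% and 95.1% of U2AF1 FPKM in v3 S34F, against 95.4% in each v3 WT library. The gene's other main isoform, ENST00000380276, had 23.9 and 46.7 FPKM in v3 S34F and 26.1 and 42.0 FPKM in v3 WT. FPKM does not tell the mutant allele from the WT allele, so these levels check the construct but not the mutation. They show the knockdown in the empty-vector libraries only, because U2AF1 FPKM in the v3 libraries includes the construct. In each v3 library ENST00000380276 alone was above the whole U2AF1 FPKM of the same-numbered knockdown library with an empty vector. How far the cells' own U2AF1 was lowered in the v3 libraries was not tested.

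The 4 libraries had a relative depth of 0.904 to 1.07, taken from the coverage per FPKM of each library, and the absolute number of reads is unknown. Between 13913 and 14450 genes reached 1 FPKM. The correlation between replicates, across genes, was 0.971 in v3 S34F and 0.978 in v3 WT. On the first principal component of all 14 libraries, which held 30.7% of the variance, v3 S34F replicate 2 lay at 38.7, away from v3 S34F replicate 1 at -1.61 and from v3 WT at -12.9 and 15.1. Values without it are given for the base pattern, the counts of calls, the isoform types and the gene lists. Of 6 markers of the line, the keratin KRT8 stood at 1480 and 1174 FPKM in v3 S34F and 1557 and 1369 FPKM in v3 WT. The aldo-keto reductase AKR1B10 stood at 1035 and 947 FPKM in v3 S34F and 1255 and 1314 FPKM in v3 WT. The keratin KRT19 differed more between replicates than between groups, with 20.2 and 76.8 FPKM in v3 S34F and 18.0 and 51.0 FPKM in v3 WT, and the adhesion molecule EPCAM did not exceed 3.97 FPKM. Of 7 fibroblast markers the highest single value was 9.26 FPKM (COL1A1), and DCN was listed at 0 in every one of the 4 libraries. Of 8 leukocyte and endothelial markers, 7 were in the files and none exceeded 2.05 FPKM. The labels call the conditions duplicates and do not say whether a duplicate is another culture, so the spread behind each p-value may be technical.

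Acceptors picked by base and direction are shown first as sequence. Acceptors with C and lower usage or with T and higher usage also occurred and were not among the classes shown. For each of 3 classes the 6 acceptors with the smallest p were taken, 1 per gene: T before the AG and lower usage in v3 S34F, C before the AG and higher usage, and A before the AG and higher usage. Each line gives bases of GRCh38, 5′ to 3′ on the gene's strand, as GENCODE release 29 transcripts of the same gene hold them. Lower case on the left is intron, the capitals are the last 3 bases of the intron (the base before the AG, then AG), and lower case on the right is the exon that the acceptor opens. The acceptors with T and lower usage were these.
SECISBP2L, chr15:49019550-49019572, minus strand: cccctctggggtttactTAGgtt
CDV3, chr3:133587876-133587898, plus strand: ttacatttcttttccctTAGgga
ILK (upstream site), chr11:6604160-6604182, plus strand: caaacacttctctcctgTAGagg
MYEOV, chr11:69295307-69295329, plus strand: caacttcccctggcactTAGgac
The acceptors with C and higher usage were these.
SCAF4, chr21:31685172-31685194, minus strand: tggaaatcccattccaaCAGtgg
ILK (downstream site), chr11:6604206-6604228, plus strand: ttccctggatcactccaCAGtcc
HNRNPM, chr19:8465460-8465482, plus strand: agattatccatgcattaCAGgct
FAM161A, chr2:61840523-61840545, minus strand: attaatgacatcattttCAGagc
KIAA0753, chr17:6590576-6590598, minus strand: ctatctcctcatccaatCAGaat
NUSAP1, chr15:41351013-41351035, plus strand: gtaatcccactgaattcCAGaat
The acceptors with A and higher usage were these.
SEMA6C, chr1:151132479-151132501, minus strand: ggccgtttcaacttttaAAGgga
TAF1D, chr11:93738438-93738460, minus strand: tatcccttactcacctaAAGggg
AP000525.9, chr22:15788565-15788587, plus strand: tatggtacatttgtgttAAGgct
MFSD9, chr2:102723876-102723898, minus strand: cacactctctccatctcAAGggc
CCDC125, chr5:69320343-69320365, minus strand: ctcctccatttccgagaAAGgga
ANKS3, chr16:4726778-4726800, minus strand: cgttctgtgttctcttgAAGcaa
The other 2 acceptors of the T class, in DDHD2 and KCTD9, are given by their values only.

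The named acceptors with T before the AG, taken for lower usage in v3 S34F and a small p, lay in genes of unrelated function. Their direction was set by that choice, which also favours groups that stand apart, as in the other classes. In SECISBP2L, which encodes a protein related to the selenocysteine insertion factor SECISBP2, the acceptor of coding exon 8 of 18 was used at 68.9% and 64.5% in v3 S34F, against 99.99% and 99.996% in v3 WT. That fall, of 33.3 ± 3.68 points (SE, n = 2 each, limma, adjusted p = 0.0337, and 0.0456 with the replicate number as a block), was the only one of the 18 differences that passed the test without the block, and its adjusted p was 0.0550 to 0.166 when 1 of the 4 libraries was left out. Over all 31388 acceptors with variable usage 9 were called, which is 0.0287% of them, and 8.52% had an unadjusted p under 0.05. In CDV3, usage of the acceptor of the last exon was 28.1% in each v3 S34F library, against 48.2% and 54.2% in v3 WT. In MYEOV it was 9.60% and 8.83% in v3 S34F, against 31.2% and 27.1% in v3 WT. The v3 S34F values lay close to each other and well below both v3 WT values in each of these genes, with adjusted p of 0.0581 for CDV3 and 0.0759 for MYEOV.

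DDHD2, which encodes an intracellular phospholipase, used the acceptor of a terminal exon at 59.3% and 67.5% in v3 S34F, against 96.8% and 93.4% in v3 WT. Its adjusted p was 0.0551, and 0.0484 with the replicate block. KCTD9, which encodes a protein with a potassium channel tetramerisation domain, used the acceptor of a 59-base exon at 41.2% and 39.3% in v3 S34F, against 75.3% and 75.5% in v3 WT (adjusted p = 0.0839). The groups did not overlap in either gene, as at 37.6% of all acceptors tested. ILK encodes integrin-linked kinase, an adaptor at focal adhesions, and both its classes of site were among the 18. The upstream T site was used at 22.2% and 18.4% in v3 S34F, against 44.1% and 49.7% in v3 WT. The C site, 46 bases further downstream, was used at 76.8% and 80.8% in v3 S34F, against 55.3% and 48.5% in v3 WT. The difference was -26.6 ± 3.60 points at the T site and 26.9 ± 3.73 points at the C site (adjusted p = 0.0652 and 0.0722).

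The 6 named acceptors with C before the AG were taken for higher usage in v3 S34F and a small p. SCAF4, whose protein binds the tail of RNA polymerase II, used the acceptor of coding exon 19 of 20 at 44.4% and 46.2% in v3 S34F, against 18.3% and 15.2% in v3 WT. This was 28.5 ± 3.50 points higher, with an adjusted p of 0.0514, and 0.0484 with the replicate block. HNRNPM, an hnRNP protein that itself takes part in alternative splicing, used the acceptor of a 36-base coding exon at 50.2% in each v3 S34F library, against 32.6% and 28.0% in v3 WT. The spread within both groups was smaller than the distance between them. FAM161A, a gene of the ciliary basal body, used an acceptor of an NMD isoform (a transcript annotated as a substrate of nonsense-mediated decay) at 43.1% and 31.8% in v3 S34F, against 0.00381% and 0.00262% in v3 WT. KIAA0753, a centriolar gene, was at 28.8% and 25.3% in v3 S34F and at 8.31% and 2.84% in v3 WT. NUSAP1, which encodes a microtubule-binding protein of the mitotic spindle, was at 37.0% and 41.3% in v3 S34F and at 15.04% and 18.4% in v3 WT. None of these 3 passed the adjustment (adjusted p = 0.0991 for FAM161A, 0.116 for KIAA0753 and 0.117 for NUSAP1).

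The 6 named acceptors with A before the AG were likewise taken for higher usage in v3 S34F. None of the 6 passed the adjustment (adjusted p of 0.0534 to 0.203). TAF1D, a subunit of the RNA polymerase I selectivity factor, used the acceptor of an NMD isoform at 32.3% and 41.2% in v3 S34F, against 6.18% and 7.53% in v3 WT. MFSD9, which encodes a member of the major facilitator transporter family, also used the acceptor of an NMD isoform, at 41.7% and 48.5% in v3 S34F and at 25.0% and 25.2% in v3 WT. The noncoding gene AP000525.9 was at 66.3% and 71.5% in v3 S34F, against 42.8% and 44.0% in v3 WT. In all 3 the values of the groups stood apart by more than the spread within either, which the choice by p favours. CCDC125 was at 48.9% and 53.8% in v3 S34F and at 28.3% and 23.4% in v3 WT, for an exon of the 5′ UTR. ANKS3 was at 78.5% and 82.5% in v3 S34F and at 64.6% and 57.1% in v3 WT. SEMA6C, a semaphorin, was at 45.0% and 47.2% in v3 S34F and at 17.1% and 0.00% in v3 WT, on a mean of only 1.02 FPKM of spanning isoforms.

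**Figure D1:**
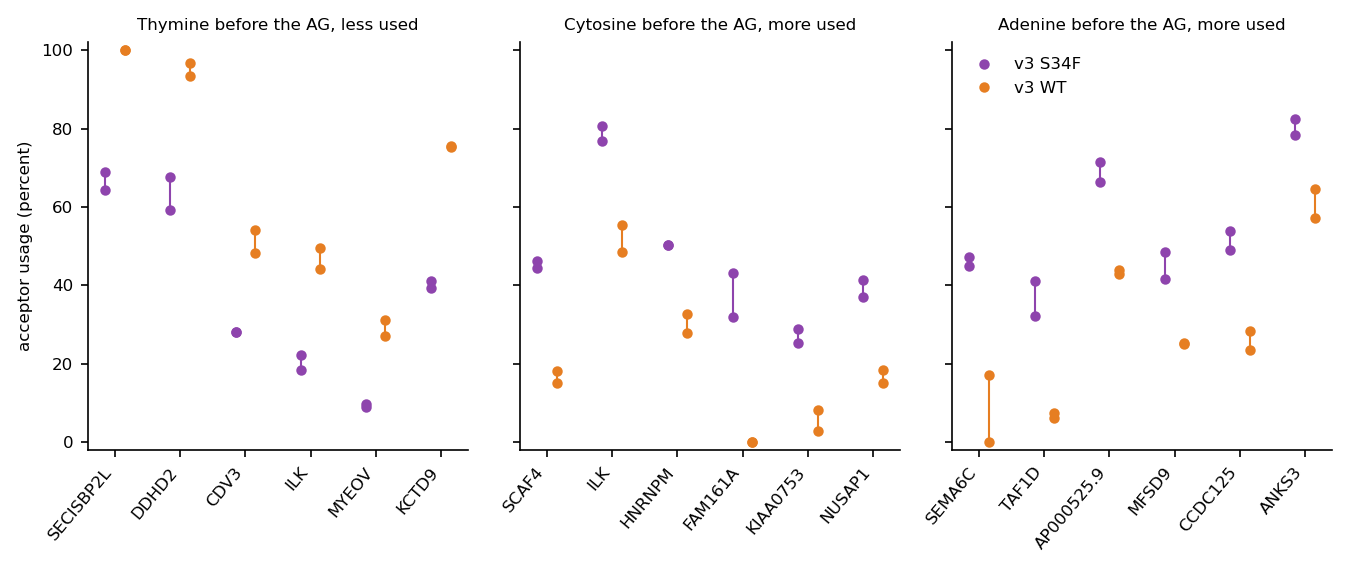
Usage of the 18 named acceptors in percent, with 1 point per library and a line joining the 2 libraries of a group, v3 S34F in purple on the left and v3 WT in orange on the right of each gene. The acceptors were taken by the smallest p, and in none do the ranges of the groups overlap, as at 37.6% of all acceptors. ILK appears both as a site with thymine that is lower in v3 S34F and as a site with cytosine that is higher.

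Across the whole set of acceptors, those with T before the AG leaned to lower usage in v3 S34F. Those with A leaned more weakly to higher usage, and those with C were split almost evenly. The base could be read for 16316 acceptors with AG in 6858 genes. Of these, 1.01% were lower and 0.938% higher in v3 S34F at an unadjusted p under 0.01 and a difference of at least 5 points, and such acceptors are called less used and more used below. These are not calls after adjustment. With 1 acceptor per gene, 85 genes had a less-used and 15 a more-used acceptor with T before the AG. With C, 43 genes had a less-used and 99 a more-used acceptor. With A the counts were 9 and 22, and with G 4 and 2. T thus stood before the AG in 60.3% of the 141 less-used and in 10.9% of the 138 more-used acceptors, while it stood there in 21.6% of all acceptors read. C stood there in 30.5% of the less-used and 71.7% of the more-used ones, against 68.3% of all. The share of C among the more-used acceptors was thus near its share of all. For A the shares were 6.38% of the less-used and 15.9% of the more-used ones, against 8.04% of all. Over all 3531 acceptors with T the median difference was -2.62 points, and 67.1% of them were lower in v3 S34F. The median was 0.13 points over the 11151 acceptors with C, 1.11 points over the 1311 with A, and -0.40 points over the 323 with G. With C, 48.6% were lower and 51.3% higher in v3 S34F. With A, 41.3% were lower and 58.5% higher, and with G 54.5% were lower and 45.2% higher. Between single libraries the T median ran from -0.04 (v3 S34F replicate 1 minus v3 WT replicate 2) to -5.27 points (v3 S34F replicate 2 minus v3 WT replicate 1). For replicate 1 minus replicate 2 within v3 S34F it was 3.41 points for T and 1.60 for C. Within v3 WT it was 1.74 points for T and 1.84 for C.

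**Figure D2:**
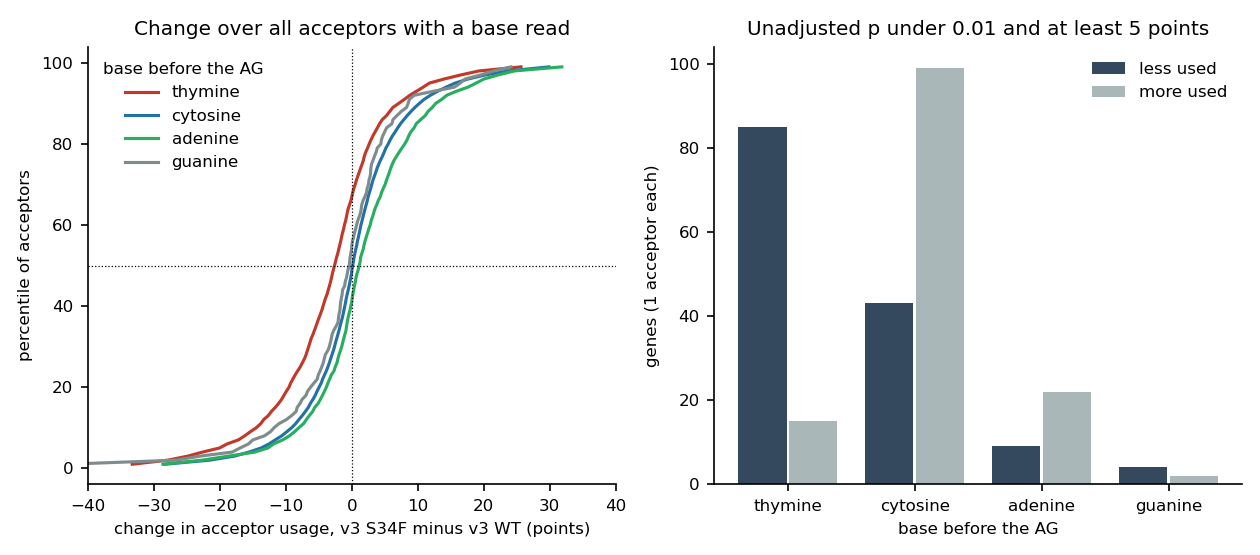
Left, percentiles of the difference in acceptor usage, v3 S34F minus v3 WT in points, for acceptors grouped by the base before the AG. Right, number of genes with a less-used (dark) or a more-used (light) acceptor by that base. The curve of thymine crosses the 50th percentile at -2.62 points and that of adenine at 1.11 points.

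The base before the AG separated less-used from more-used acceptors more than any other base of the 20 before and the 3 after the splice site. Among acceptors with the full window read, T at that position made up 66.4% of the 125 less-used and 11.8% of the 127 more-used ones, a gap of 54.6 points. The widest gap at any other position was A at position -10 (counted back from the exon), which made up 5.60% of less-used and 20.5% of more-used acceptors. By the first base of the exon the medians of the difference lay between -0.35 points (G) and -0.01 points (C). The number of pyrimidines in the 16 bases from -20 to -5 had a median of 12 for T acceptors whether they were less used, more used or neither. For C acceptors it was 11 in the 98 more-used ones and 12 in the less-used ones and the rest. For A acceptors it was 11 in the 7 less-used ones and 12 in the more-used ones and the rest.

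The less-used acceptors with T had a median usage of 49.2% in v3 S34F and 74.0% in v3 WT, over differences of 11.4 to 53.8 points, where all acceptors with T had medians of 72.3% in v3 S34F and 77.2% in v3 WT. The more-used acceptors with C had medians of 56.4% in v3 S34F and 28.1% in v3 WT, where all acceptors with C had 70.2% in v3 S34F and 69.7% in v3 WT. The 22 more-used acceptors with A had medians of 35.2% in v3 S34F and 8.37% in v3 WT, where all acceptors with A had 44.7% in v3 S34F and 42.7% in v3 WT. Exons opened by less-used T acceptors were coding or partly coding in 77.6% of cases, against 74.7% of all exons opened by T acceptors. Of the 22 more-used A acceptors, 9 had an NMD isoform as their most abundant user, that is 40.9%, against 13.3% of all A acceptors. The length of the exon was a multiple of 3 for 2 of those 22, against 37.6% of all A acceptors. These shares describe acceptors already sorted by their difference and carry no test.

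The base pattern was stronger in v3 S34F replicate 2. In the 4 differences between a v3 S34F and a v3 WT library, the median for T minus the median for C was -3.71 and -3.26 points for v3 S34F replicate 2 against v3 WT replicates 1 and 2. It was -1.74 and -1.99 points for v3 S34F replicate 1 against the same v3 WT libraries. Between the v3 S34F libraries themselves this value was 1.81 points (replicate 1 minus replicate 2), and between the v3 WT libraries -0.11 points. All 4 differences between the groups were thus negative, and those of v3 S34F replicate 1 were about as large as the gap between the v3 S34F libraries. Without v3 S34F replicate 2, T stood before the AG in 33.8% of 80 less-used and 15.6% of 90 more-used acceptors. Without v3 WT replicate 1 it stood there in 55.0% of 100 less-used and 23.1% of 108 more-used ones. In the v1 libraries, which share no sample with v3, the 4 differences of S34F minus WT were also negative and also larger in replicate 2, at -4.91 and -3.83 points for v1 S34F replicate 2 and -2.08 and -2.54 points for v1 S34F replicate 1. Same-numbered v1 S34F and v3 S34F libraries deviated together from their group means, with a correlation of 0.571 across genes, and the part of the replicate number in what v3 and v1 share was not tested.

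**Figure D3:**
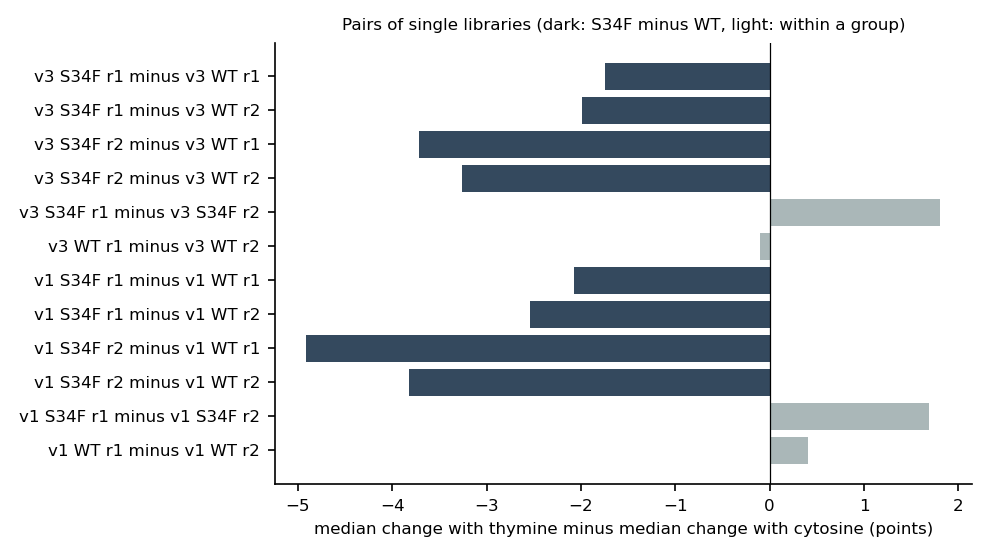
Median change of acceptors with thymine minus median change of acceptors with cytosine before the AG, in points, for pairs of single libraries. Dark bars are S34F minus WT and light bars are replicate 1 minus replicate 2 of a group. Every dark bar lies below 0, from -1.74 to -3.71 points in v3.

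Neighbouring acceptors with opposite differences were looked at within single genes. In 10 genes a less-used and a more-used acceptor lay within 300 bases of each other. How often neighbouring acceptors hold T and C whatever their difference is not given here. Of all acceptors read, 21.6% had T and 68.3% had C. In 7 of these pairs the less-used site had T and the more-used site C, in 1 (PICALM) T and A, in 1 (TPT1-AS1) T and T, and in 1 (CBS) C and C. The T to C pairs lay in ARHGAP11A, CEP170, FN1, ILK, IMMT, JMJD7 and ZMIZ2, and the T site came first in all of them but JMJD7. In FN1, the gene of fibronectin, the T site was at 50.6% and 42.8% in v3 S34F and 66.7% and 60.5% in v3 WT. The C site 75 bases downstream was at 33.2% and 40.9% in v3 S34F and 23.8% and 26.1% in v3 WT. In CEP170, a centrosomal gene, the T site was at 41.1% and 44.6% in v3 S34F and 64.0% and 76.9% in v3 WT. As usage at such sites adds up to about 100%, the losses and gains of a pair are not independent. PICALM encodes a clathrin assembly protein, and its T site is shown because the gene was on the list of known targets of mutant U2AF1.
PICALM, chr11:85981986-85982008, minus strand: ttaaggctttgatgaacTAGgtg
The PICALM site was used at 11.0% and 10.1% in v3 S34F, against 33.6% and 25.7% in v3 WT. The A site 15 bases upstream was used at 89.0% and 89.2% in v3 S34F, against 65.9% and 74.3% in v3 WT (adjusted p = 0.222 for both sites, and 0.0904 for the T site with the replicate block).

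The other called acceptors could not be read at the base before the AG. PPHLN1, which encodes a subunit of the HUSH silencing complex, used the acceptor of a 165-base coding exon at 7.72% and 6.80% in v3 S34F, against 42.6% and 43.7% in v3 WT (fell by 35.9 ± 3.83 points, adjusted p = 0.0307). UBE2Q2, a ubiquitin-conjugating enzyme, used the acceptor of a 105-base coding exon at 42.2% and 35.5% in v3 S34F, against 81.6% and 79.2% in v3 WT (fell by 41.6 ± 4.45 points, adjusted p = 0.0307). PACRGL fell to 38.9% and 37.1% in v3 S34F, against 68.2% and 70.9% in v3 WT (adjusted p = 0.0337). RPN2, a subunit of the oligosaccharyltransferase, rose at a 48-base coding exon to 64.6% and 67.7% in v3 S34F, against 30.0% and 39.2% in v3 WT (adjusted p = 0.0337). With SECISBP2L these are 5 calls, all of them also called with the replicate block. Leaving out 1 of the 4 libraries ended each call for at least 3 of the 4 choices (adjusted p up to 0.195 for PACRGL), except that RPN2 stayed called without v3 WT replicate 2 (0.0277) and UBE2Q2 without v3 S34F replicate 1 (0.0406). A trend in the spread on mean usage, chosen after seeing the data, ended all 5. The other 4 of the 9 calls are acceptors of 1 noncoding isoform of CMSS1, at 99.8% and 99.9% in v3 S34F and 0.998% and 0.00% in v3 WT, but the spanning isoforms summed to only 0.0306 and 0.0313 FPKM in v3 S34F, against 2.79 and 1.81 FPKM in v3 WT. Where spanning isoforms had to reach 1 FPKM in every library, a condition chosen after seeing the data, 10 acceptors were called, 0.0363% of those tested, and CMSS1 was not among those tested. At 5 FPKM or more 58 were called, 0.261% of those tested. With the replicate block 17 were called, 6 higher and 11 lower, which is 0.0542% of those tested.

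At the level of whole isoforms 1 of 41727 was called, which is 0.0024%, and none with the replicate block. The called isoform was the protein-coding ENST00000569423 of UBE2Q2, with 46.7% and 48.3% of the gene's FPKM in v3 S34F, against 16.5% and 15.4% in v3 WT (rose by 31.6 ± 2.78 points, adjusted p = 0.0455, 0.0984 with the block, and 0.0763 to 0.124 without 1 of the 4 libraries). At an unadjusted p under 0.05 there were 3108 isoforms, 7.45% of those tested. With genes limited to a mean of 5 FPKM or more, 24 isoforms were called, 12 higher and 12 lower, which is 0.0739% of the 32483 tested then. They were named after their values were seen. Among the higher ones were ENST00000368858 of BUB3, a protein of the spindle checkpoint, at 69.6% and 72.2% in v3 S34F and 39.8% and 40.03% in v3 WT, and ENST00000396068 of ANLN, the cytokinesis scaffold anillin, at 42.8% and 48.3% in v3 S34F and 24.8% and 21.3% in v3 WT. Among the lower ones were ENST00000261434 of LIAS, the lipoic acid synthase of mitochondria, at 22.9% and 35.8% in v3 S34F and 77.9% and 81.1% in v3 WT, and ENST00000325495 of HNRNPM, at 42.0% and 40.9% in v3 S34F and 60.3% and 64.8% in v3 WT. The groups stood apart in all 4, as at 37.2% of all isoforms tested.

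Isoforms were also counted by annotated type, at an unadjusted p under 0.01 and at least 5 points. Of all isoforms 2.28% reached that mark, 507 higher in v3 S34F and 445 lower. Of 2711 NMD isoforms 41 were higher and 26 lower. For retained introns it was 31 higher and 19 lower, of 4946, and for processed transcripts 58 higher and 43 lower, of 4612. For protein-coding isoforms it was 321 higher and 309 lower, of 24788. Over all members of a type the median difference was 0.24 points for NMD isoforms, 0.39 points for retained introns and -0.32 points for protein-coding isoforms, against -0.06 points over all isoforms. These counts and medians depended on single libraries. Without v3 S34F replicate 2, 22 NMD isoforms were higher and 10 lower, beside 391 higher and 221 lower over all isoforms, and the median for retained introns was -0.63 points. Without v3 WT replicate 1 the median was 0.26 points for NMD isoforms and -0.38 points for retained introns, beside 0.0048 points over all isoforms.

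Genes that earlier work ties to mutant U2AF1 were looked at as a list of 30, and none had an isoform that passed the adjustment. From each gene the isoform with the smallest p was taken, and those with the largest differences in points are described first. CTNNB1, the gene of beta-catenin, used ENST00000396185 at 59.9% and 66.4% in v3 S34F, against 33.4% and 36.2% in v3 WT (28.3 ± 4.72 points, adjusted p = 0.127). BCOR, a transcriptional corepressor, used ENST00000378444 at 18.6% and 6.18% in v3 S34F, against 34.6% and 54.9% in v3 WT. STRAP, a WD repeat protein of the SMN complex, used ENST00000419869 at 59.5% and 28.6% in v3 S34F, against 88.0% and 84.3% in v3 WT. At STRAP the v3 S34F libraries stood far from each other, with replicate 2 the lower one, and the difference was -42.1 points with both and -26.6 points without replicate 2. DEK, a chromatin protein, used ENST00000244776 at 44.1% and 43.5% in v3 S34F, against 20.2% and 21.2% in v3 WT. ATR, the replication stress kinase, had its NMD isoform ENST00000504521 at 23.1% and 37.4% in v3 S34F, against 5.54% and 7.27% in v3 WT. The ATR difference was 23.8 points (limma, adjusted p = 0.512), and 16.7 points without v3 S34F replicate 2. At the level of acceptors, 28 of the 30 genes had one with variable usage, and the smallest p belonged to FXR1, the autosomal relative of FMR1. Its acceptor of exon 16 was used at 45.9% and 45.2% in v3 S34F, against 27.3% and 27.2% in v3 WT (18.3 ± 2.84 points, adjusted p = 0.0857). FMR1, the fragile X gene, was at 43.3% and 46.2% in v3 S34F and 72.6% and 75.8% in v3 WT for the acceptor of its exon 16. Taking for each gene the isoform with the smallest p, 26 of 30 had the same direction in v1, where the S34F and WT libraries are separate ones. That share, 86.7%, stands beside 61.8% of all isoforms and 84.2% of the isoforms with an unadjusted p under 0.01 and at least 5 points in v3.

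At the gene level NCAPG2 and HACL1 fell. Of 14233 genes tested 3 were called, which is 0.0211% (0.00703% higher and 0.0141% lower), and 917 had an unadjusted p under 0.05, which is 6.44%. In bulk RNA, fewer cells of a kind and less RNA per cell cannot be told apart. NCAPG2, a subunit of condensin II, which folds mitotic chromosomes, lies on chromosome 7 (158424003 to 158497520, GRCh37). It had 13.96 and 11.5 FPKM in v3 S34F, against 35.8 and 32.6 FPKM in v3 WT, and averaged 12.7 ± 1.73 FPKM in v3 S34F and 34.2 ± 2.26 FPKM in v3 WT (SD, n = 2 each). It fell by 1.36 ± 0.12 on the log2(FPKM + 1) scale (SE, limma, adjusted p = 0.00232, and 0.000712 with the replicate block). HACL1, the peroxisomal lyase of fatty acid alpha-oxidation, lies on chromosome 3 (15602211 to 15643338, GRCh37). It had 12.3 and 11.9 FPKM in v3 S34F, against 26.8 and 26.9 FPKM in v3 WT, and fell by 1.09 ± 0.12 log2 units (adjusted p = 0.0124, and 0.00503 with the block). The v3 S34F mean was 37.2% of the v3 WT mean for NCAPG2 and 45.0% for HACL1. HACL1 overlaps BTD. NCAPG2 kept its call when any 1 of the 4 libraries was left out, while HACL1 then had an adjusted p of 0.0511 to 0.161. Tested on the 4 libraries of v3 alone, neither was called (adjusted p = 0.928 for each).

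Some isoforms of both genes differed in usage as well, and none of those tested passed the adjustment. The protein-coding ENST00000356309 made up 31.6% and 28.2% of NCAPG2 FPKM in v3 S34F, against 60.6% and 46.1% in v3 WT (-23.5 ± 7.38 points, unadjusted p = 0.0110). The NCAPG2 NMD isoform ENST00000432615 had 3.22% and 10.1% in v3 S34F and 0.685% and 0.949% in v3 WT. Its mean usage was under 5%, so it was not tested. Its level was low, with 0.449 and 1.17 FPKM in v3 S34F and 0.245 and 0.310 FPKM in v3 WT. For HACL1 the NMD isoform ENST00000422591 had 30.8% and 35.7% in v3 S34F and 20.8% and 20.1% in v3 WT (12.8 ± 4.97 points, unadjusted p = 0.0298). In FPKM that HACL1 isoform was lower in v3 S34F all the same, with 3.78 and 4.25 FPKM, against 5.59 and 5.40 FPKM in v3 WT.

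The third call was CTC-246B18.10, which is listed at 0 in both v3 WT libraries and at 12.7 and 14.03 FPKM in v3 S34F (adjusted p = 0.0139). It is a feature of under 200 bases that overlaps GMFG on chromosome 19, and in the 10 libraries outside v3 it ranged from 4.18 to 24.9 FPKM. The v3 WT libraries were thus the ones that stood apart, not the v3 S34F libraries. SNORA52, a small nucleolar RNA inside RPLP2, had 16.9 and 3.15 FPKM in v3 S34F and was listed at 0 in all other libraries of the series (adjusted p = 0.0866, and 0.0226 with the block). The call of CTC-246B18.10 was lost when any 1 library was left out (adjusted p of 0.0633 to 0.161).

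Same-numbered replicates deviated together in every pair of groups, so the fit with the replicate number as a block is given beside the main one. It called 69 genes, 19 higher and 50 lower in v3 S34F, which is 0.485% of those tested (0.133% higher and 0.351% lower). These calls depended on every library. Without v3 S34F replicate 2 the block fit called 8 genes, 3 of them among the 69, and without v3 S34F replicate 1 it called 28, 16 of them among the 69. Without v3 WT replicate 1 it called 6 genes and without v3 WT replicate 2 it called 2, of which 3 and 1 were among the 69. U2AF2, the partner of U2AF1, was among them, with 103 and 96.4 FPKM in v3 S34F, against 201 and 202 FPKM in v3 WT (-1.01 ± 0.14 log2 units, adjusted p = 0.0637, and 0.00654 with the block). The NMD isoform ENST00000592874 made up 10.4% and 11.8% of U2AF2 FPKM in v3 S34F, against 1.91% and 2.60% in v3 WT. Its mean usage was under 5%, so it was not tested. Another NMD isoform, ENST00000587196, overlapped between the groups, at 0.716% and 3.85% in v3 S34F and 0.940% and 0.841% in v3 WT. In FPKM ENST00000592874 was higher in v3 S34F, with 10.6 and 11.4 FPKM against 3.84 and 5.25 FPKM in v3 WT. The 3 main coding isoforms were lower. The acceptor that ENST00000592874 uses in U2AF2 (chromosome 19, 55661771, GRCh38) was at 16.6% and 23.9% in v3 S34F, against 4.39% and 5.43% in v3 WT (15.4 ± 4.13 points, limma, adjusted p = 0.278).

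The other genes named for a decrease were taken by the smallest p at a difference of at least 0.58 log2 units, and each was called with the block and not without it. KIAA1524, also known as CIP2A, an inhibitor of protein phosphatase 2A, had 15.6 and 13.6 FPKM in v3 S34F, against 29.04 and 27.5 FPKM in v3 WT. BICC1, an RNA-binding protein, had 24.2 and 21.1 FPKM in v3 S34F, against 38.3 and 43.7 FPKM in v3 WT. SLK, a kinase of the Ste20 group, had 11.4 and 11.2 FPKM in v3 S34F, against 22.0 and 21.0 FPKM in v3 WT. These were log2 differences of -0.91, -0.83 and -0.87, with no overlap of the groups, as at 33.6% of all genes. RBM14, a coactivator found in paraspeckles, had 32.5 and 27.7 FPKM in v3 S34F, against 53.04 and 57.8 FPKM in v3 WT, and overlaps the read-through RBM14-RBM4. UEVLD had 11.2 and 10.1 FPKM in v3 S34F and 23.4 and 20.1 FPKM in v3 WT. The others of the 12 named were MEF2BNB (-0.97), a subunit of the lysosomal BORC complex, and 3 low or noncoding features, RP11-539L10.3 (-1.60), PSPC1P1 (-1.26) and AC012146.7 (-1.08). PSPC1P1 is a pseudogene of PSPC1, which was itself lower (-0.69), and reads may have been split between the copies.

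The block calls reached genes of several functions, chosen here after their values were seen. XRN2, the nuclear exoribonuclease of transcription termination, had 48.3 and 32.9 FPKM in v3 S34F, against 87.1 and 71.3 FPKM in v3 WT. CCNH, the cyclin of the CDK-activating kinase, had 19.4 and 18.8 FPKM in v3 S34F, against 37.97 and 39.0 FPKM in v3 WT, and its partner in transcription factor TFIIH, GTF2H1, had 16.99 and 15.3 FPKM in v3 S34F and 26.3 and 33.3 FPKM in v3 WT. FANCI, of the Fanconi anaemia DNA repair pathway, had 48.7 and 55.6 FPKM in v3 S34F, against 89.0 and 93.6 FPKM in v3 WT. CCNH shares its locus with RASA1 and FANCI with POLG, so reads of these genes may have been split.

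Of the 12 genes named for an increase by the same rule, CTC-246B18.10 alone was called without the block, and 10 were called with it. GUCA1B, a calcium-binding activator of guanylate cyclase, had 4.14 and 7.56 FPKM in v3 S34F, against 0.643 and 0.967 FPKM in v3 WT (1.88 ± 0.32 log2 units, adjusted p = 0.109, and 0.0113 with the block). CNTF, ciliary neurotrophic factor, had 4.28 and 6.92 FPKM in v3 S34F, against 1.22 and 1.06 FPKM in v3 WT, and lies inside the read-through ZFP91-CNTF. The read-through CSNK2B-LY6G5B-1181 had 6.03 and 8.48 FPKM in v3 S34F, against 2.47 and 1.49 FPKM in v3 WT. EYA3, a phosphatase and transcriptional coactivator, had 11.2 and 13.5 FPKM in v3 S34F and 5.71 and 6.31 FPKM in v3 WT. FBXL2, an F-box subunit of ubiquitin ligases, had 19.1 and 19.3 FPKM in v3 S34F and 9.14 and 11.4 FPKM in v3 WT. DNAH14, an axonemal dynein heavy chain, had 30.5 and 37.5 FPKM in v3 S34F and 21.4 and 19.4 FPKM in v3 WT. KCND1 (1.19), RP11-41O4.1 (1.40), RMND1 (0.76) and ZNRF2P2 (1.02) completed the 12, the last 2 not called with the block (adjusted p = 0.0562 and 0.0591).

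**Figure D4:**
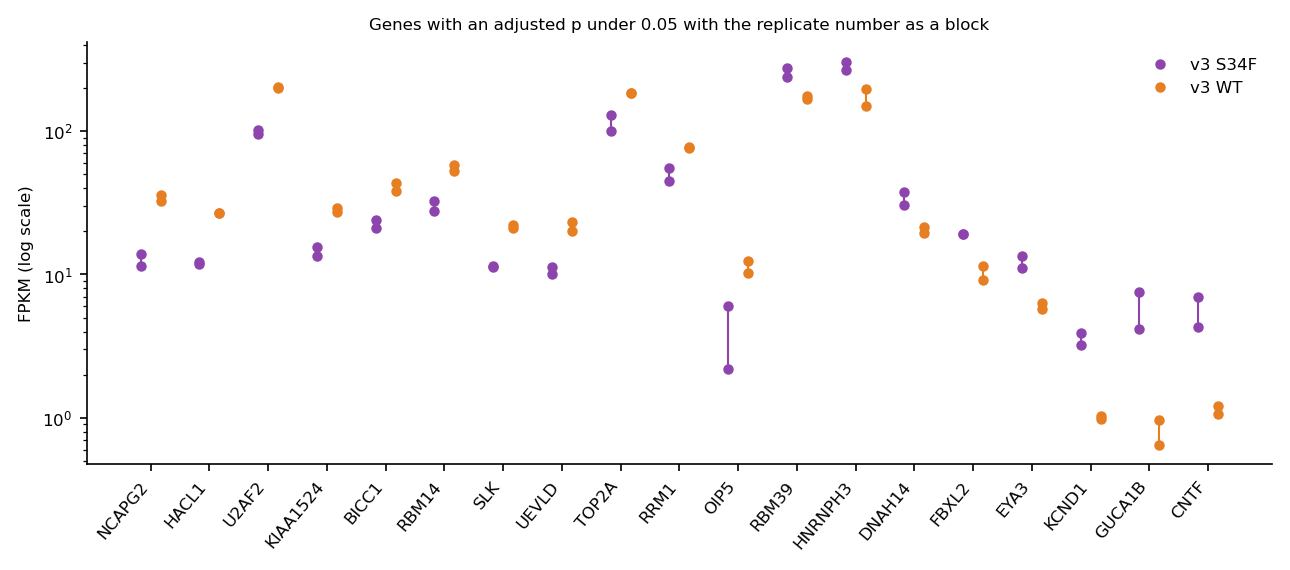
FPKM on a log scale of named genes with an adjusted p under 0.05 in the fit with the replicate block, 1 point per library, v3 S34F in purple on the left and v3 WT in orange on the right of each gene. NCAPG2 and HACL1, the first genes, are also called without the block.

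Few members of the gene lists were called. Over all genes tested the median difference was 0.02 log2 units, and the medians of the lists lay between -0.27 (the 2 measured fibroblast markers) and 0.28. Over all genes tested 0.0211% were called without the block, and with it 0.133% were called higher and 0.351% lower. Without the block 2 lists held a called member, condensin and cohesin with NCAPG2 (1 of 18) and peroxisomal oxidation with HACL1 (1 of 35). With the block, 1 of 27 splice site recognition factors rose (RBM39, a U2AF2-like splicing factor, with 275 and 237 FPKM in v3 S34F and 168 and 177 FPKM in v3 WT) and 1 fell (U2AF2). Of 31 SR and hnRNP proteins HNRNPH3 rose, with 306 and 269 FPKM in v3 S34F and 198 and 149 FPKM in v3 WT. Of 40 centromere and kinetochore genes OIP5 alone was called lower with the block (6.02 and 2.18 FPKM in v3 S34F, 12.5 and 10.2 FPKM in v3 WT). Of 30 G2/M genes TOP2A alone was (129 and 100.5 FPKM in v3 S34F, 184 and 185 FPKM in v3 WT). Of 30 G1/S and replication genes RRM1 alone was (55.1 and 44.7 FPKM in v3 S34F, 77.6 and 75.9 FPKM in v3 WT). The medians were -0.02 for the centromere list, -0.07 for G2/M, 0.00 for G1/S, -0.03 for splice site recognition, 0.05 for SR and hnRNP proteins, 0.03 for condensin and cohesin and -0.06 for peroxisomal oxidation.

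No member of the other lists described here was called by either fit. Cholesterol synthesis stood highest, with a median of 0.28 and 18 of 24 genes above 0, of which 5 had an unadjusted p under 0.05, as had 415 of all 14233 genes in that direction. Its summed level was 1007 and 1028 FPKM in v3 S34F and 975 and 792 FPKM in v3 WT, so that the groups differed mostly in replicate 2. Without v3 S34F replicate 2 the median was 0.22, and without v3 WT replicate 2 it was 0.11. INSIG1, the sterol-regulated retention protein, had 25.3 and 33.5 FPKM in v3 S34F, against 18.4 and 12.5 FPKM in v3 WT (0.90 ± 0.21, adjusted p = 0.262). NF-kB and cytokine genes had a median of 0.18, which was -0.31 without v3 S34F replicate 2 and -0.11 without v3 WT replicate 1. Mesenchymal and TGF-beta genes had a median of 0.10, autophagy genes 0.10, and replication histones -0.15, and without v3 S34F replicate 2 these were 0.01, 0.08 and -0.29. Nonsense-mediated decay factors (0.02), known targets of mutant U2AF1 (0.06), p53 targets (0.01), the unfolded protein and stress response (0.07), NRF2 targets (-0.05), epithelial genes (-0.01), glycolysis and hypoxia (-0.06), ribosomal proteins (0.02), mitochondrially encoded genes (0.04, and -0.18 without v3 S34F replicate 2) and the 2 measured leukocyte and endothelial markers (0.23) lay nearer to 0 or rest on few genes. The members with the largest differences in these lists were IL8 (1.02), CDH2 (0.39), ULK1 (0.47), HIST3H2A (0.37), SMG6 (0.30), SMARCA5 (-0.70), CCNG1 (0.46), VLDLR (-0.69), HMOX1 (-0.55), CDH1 (-0.56), ALDOC (0.58), RPL12 (0.13), MT-CYB (0.12), THY1 (-0.48) and CD68 (0.38).

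The v1 construct, another isoform of U2AF1, gave a second S34F to WT comparison with no library in common, and v3 was set beside it. Across all genes the differences of v3 and v1 had the same sign for 74.9%, with a correlation of 0.517, which is across genes that are not independent replicates. Among the 917 genes with an unadjusted p under 0.05 in v3 the sign was the same for 93.9%. Of the 69 genes called in v3 with the block, 67 had the same sign in v1, including all 50 lower ones, and 58 were called in v1 with the block too, which is 84.1% of the v3 calls and 18.8% of the 309 v1 calls. In v1 the difference was -1.57 log2 units for NCAPG2 and -1.07 for HACL1. In v1 S34F replicate 2, 1 isoform of AL132768.1 held 33.1% of the summed FPKM and the first principal component lay at 48.4, and the part of that library in the v1 values was not tested. The difference between the constructs was tested itself. No gene's change differed between v3 and v1 after adjustment (limma, 101 genes at an unadjusted p under 0.05, which is 0.71%), and no isoform's change did (1295 isoforms, 3.1%). For NCAPG2 the change in v3 minus that in v1 was 0.20 ± 0.16 and for HACL1 it was -0.02 ± 0.17 log2 units.

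Less-used T acceptors of v3 had the same sign in v1 in 83 of 85 genes, more-used C acceptors in 87 of 99, and more-used A acceptors in 21 of 22. Less-used C acceptors had the same sign in 27 of 43. Over all 16316 acceptors with a base read the signs matched at 62.1%. With 1 acceptor per gene, they matched at 85.8% of all less-used and 87.7% of all more-used acceptors. The more-used C acceptors were thus near the share of all more-used ones. Of the named acceptors, SECISBP2L differed by -33.3 points in v3 and by -28.1 points in v1, and the T site of ILK by -26.6 points in v3 and by -11.4 points in v1. DDHD2 differed by -31.7 points in v3 and by -8.80 points in v1, and SEMA6C by 37.5 points in v3 and by -0.01 points in v1. In limma's test of the difference between the constructs, the unadjusted p was 0.000379 for SEMA6C, 0.00349 for DDHD2, 0.0152 and 0.0159 for the sites of ILK, 0.0219 for KIAA0753 and 0.0382 for CCDC125, and none of these passed adjustment over all acceptors. After adjustment 5 of the 31388 acceptors differed between the constructs, which is 0.0159%, and none where spanning isoforms reached 1 FPKM in every library.

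**Figure D5:**
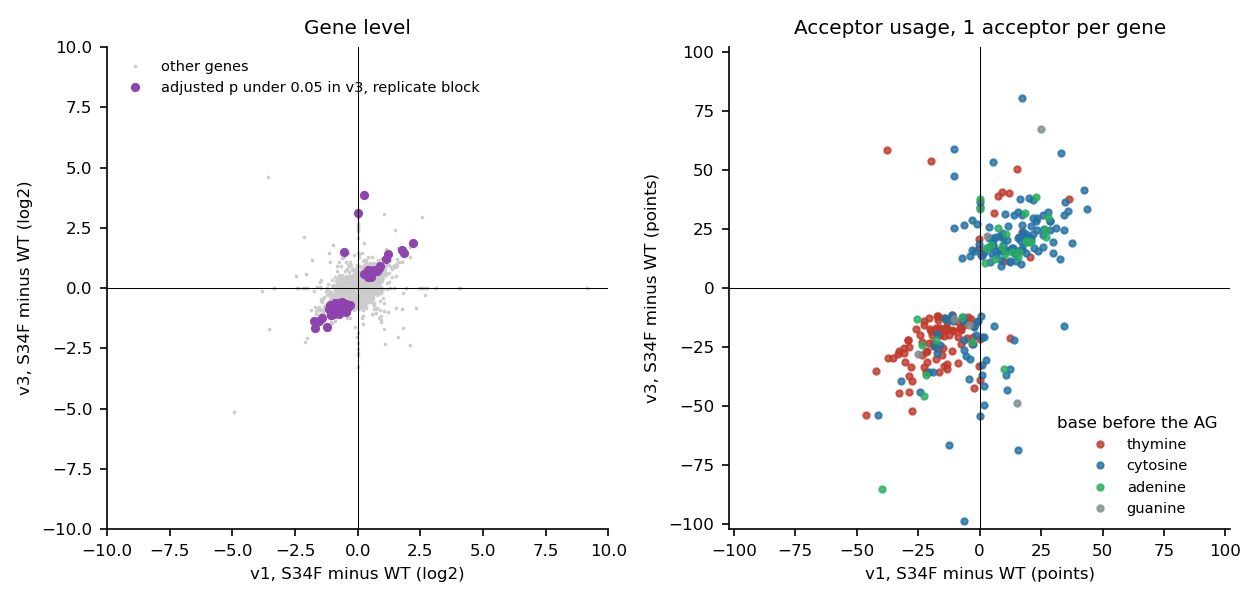
Left, difference in gene level, S34F minus WT in log2 units, in v3 (vertical) and v1 (horizontal) for all genes tested, with the 69 genes called in v3 with the replicate block in purple. Right, difference in acceptor usage in points for the less-used and more-used acceptors of v3, 1 per gene, coloured by the base before the AG. In both, most points lie where the signs agree, that is 67 of the 69 purple genes and 242 of the 279 acceptors.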

How the data were processed

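RNA-seq of A549 cells was analysed from the per-library isoform tables. The submitters' processing notes name Trimmomatic 0.30, TopHat2 2.0.12 and the build GRCh37. Which program made the FPKM, and on which gene models, was not stated in the sources used here. The deposited tables give, per the file headers, FPKM per isoform with its interval and a status, and the coverage that the authors' quantifier assigned to each isoform, which was used only for relative depth. No counts were used, so absolute depth is unknown and values carry no counting interval.

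Gene values are FPKM summed over the gene identifier. Genes with a mean of at least 1 FPKM over the 14 libraries were kept (14244 of 57756), and 11 with a failed status were left out, so that 14233 were tested on log2(FPKM + 1), which understates the change of low genes. Isoform usage is the isoform's FPKM in percent of that sum, for isoforms with a mean usage between 5% and 95%. Isoforms were matched by identifier to GENCODE release 29 on GRCh38 (102288 of 116194) for exons, types and acceptors. No genome sequence was used, so bases before an acceptor were read from other transcripts of the same gene that cover them. That was possible for 52.3% of acceptors, 99.4% of which end in AG, and it favours acceptors inside a longer exon or retained intron of another isoform.

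Tests used limma 3.58.1 (R 4.3.3) on all 7 groups, with 7 residual degrees of freedom, an intensity trend for genes and none for usage, and Benjamini-Hochberg adjustment within each comparison at 0.05. They were tested on simulated data first. Replicate numbers paired the samples: in all 21 pairs of groups the same-numbered libraries deviated together, with correlations of 0.160 to 0.571 across genes. The members, gene lists and rules for named genes were chosen with earlier results of these data known. The rule named the 12 genes per direction that were called or next by p, 6 acceptors per class by p, and for each list its called or most different member. Alternatives changed the pseudocount, the limits on FPKM and usage, the scaling, the transform, the block and the libraries used. Some results are not reported here. Tables and plots were made with pandas 2.3.3, numpy 2.4.6, scipy 1.17.1 and matplotlib 3.10.9.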

Additional observations from a re-analysis of the deposited data

Results flagged for a closer look

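The change in v3 minus the change in v1 passed the adjustment at 5 acceptors, which is a difference between the constructs in limma's interaction test. For 4 acceptors of CMSS1, all of the same noncoding isoform, it was 103 ± 3.75 points (SE, adjusted p = 3.7e-06). Spanning isoforms summed to 0.0306 and 0.0313 FPKM in v3 S34F and to 2.79 and 1.81 FPKM in v3 WT. For 1 acceptor of KLHL22 it was -94.5 ± 10.5 points (adjusted p = 0.0492), with usage of 4.49% and 0.00% in v3 S34F, 0.00% and 15.8% in v3 WT, 98.0% and 99.4% in v1 S34F, and 7.82% and 12.01% in v1 WT. Its spanning isoforms summed to 0.160 and 0.961 FPKM in v1 S34F and to 2.13 and 2.60 FPKM in v1 WT. The part of these low sums in the differences was not tested, and none of the 5 acceptors was among those tested where spanning isoforms had to reach 1 FPKM in every library.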

How the results depend on the processing

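Counts of calls depended on the filters, the libraries in the fit and the block. Genes called in v3 numbered 3, against 21 with no filter, 0 on the 4 libraries of v3 alone (756 at an unadjusted p under 0.05), 69 with the replicate block and 2 to 7 with 1 library left out. With the block and 1 library of v3 left out, called genes numbered 2 to 28. Called isoforms numbered 1, against 24 at 5 FPKM or more, 85 with no limit on usage, 0 with the arcsine transform, the 4 libraries of v3, the replicate block or a trend in the spread, and 2 to 8 with 1 library left out. Called acceptors numbered 9, against 58 at 5 FPKM or more, 87 with no limit on usage, 17 with the replicate block, 4 with a trend and 10 to 28 with 1 library left out. For v3 minus v1, genes numbered 0, against 1 with a pseudocount of 0.1, 15 with no filter, 2 on the 8 construct libraries and 1 to 6 with 1 library left out. Isoforms numbered 0, against 30 with no limit on usage and 2 to 8 with 1 library left out. Acceptors numbered 5, against 0 at 5 FPKM or more, 21 with no limit on usage, 11 on the 8 construct libraries, 0 with spanning isoforms at 1 FPKM in every library and 7 to 21 with 1 library left out. The trend, the limit in every library, the block with 1 library left out and the acceptor comparison of v3 minus v1 were chosen after seeing the data.

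T stood before the AG in 60.3% of less-used acceptors, against 72.9% at 5 FPKM or more, 45.05% on the 4 libraries of v3 and 33.8% to 60.9% with 1 library left out. In more-used acceptors it was 10.9%, against 4.88% at 5 FPKM or more and 12.1% to 23.1% with 1 library left out. Of 1103 values of named genes, isoforms and acceptors under alternatives, 987 kept their sign and side of the threshold, 52 gained a call, 51 lost it and 13 changed sign, none of them called. With 1 library left out, log2 differences ranged from -0.40 to 0.21 for U2AF1 (0.15 without v3 WT replicate 2), -0.084 to 2.12 for IL8, -1.35 to 0.24 for CDH1, -0.62 to 1.39 for CDH2 (-0.58 without v3 WT replicate 1), -0.14 to 0.38 for MT-CYB (-0.09 without v3 WT replicate 1) and -1.19 to 0.24 for THY1. Points ranged from -14.4 to 0.618 for the PAN3 isoform, -2.52 to 9.87 for SRSF6 and -1.70 to 9.11 for SMARCA5 (-0.395 without v3 S34F replicate 1). The cause of these shifts was not tested.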
